A study of Mus musculus with 9 samples.

Results

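The gasdermin family was followed in colorectal RNA of 9 mice through 6 genes, Gsdma, Gsdmc, Gsdmc2, Gsdmc3, Gsdmc4 and Gsdmd, which were picked by gene symbol out of the 21498 symbols measured. All 9 animals were male mice of the outbred ICR strain, 5 weeks old at the start, with 3 mice in each of 3 groups. Control mice received neither a carcinogen nor an antibody, and their samples are labelled normal colorectal mucosa. The other mice were injected once with 10 mg/kg azoxymethane (AOM), a colon carcinogen, and then drank 3 cycles of dextran sulfate sodium (DSS), which injures the colon epithelium (2% for 7 days, then 1.5% for 5 days in each later cycle). During the DSS cycles they received 1.5 mg/kg of a control IgG antibody (AOM/DSS + IgG Ab) or of an antibody against S100a9, a neutrophil alarmin (AOM/DSS + anti-S100a9 Ab). All were killed at the end of week 18, and the labels call both AOM/DSS tissues colorectal adenocarcinoma, whereas the study's text calls the tissue of the anti-S100a9 group colon mucosa.

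Gasdermins are cytosolic proteins with a pore-forming N-terminal part that is held inactive by the C-terminal part. Proteases that cut between the parts, such as inflammatory caspases acting on gasdermin D, free the pore-forming part, which opens the plasma membrane, lets interleukin-1 family cytokines out and can kill the cell by pyroptosis. In mice, Gsdmd is broadly expressed and abundant in gut epithelium, Gsdma belongs to the epithelium of skin and upper digestive tract, and the Gsdmc genes are expressed in intestinal epithelium, where type 2 cytokines induce them.

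Expression values have the form of FPKM, fragment counts divided by transcript length and by library size, so levels of different genes are compared per length. FPKM totals ran from 308377 to 408811 per mouse, and the spacing of the lowest values implied about 23200000 to 30200000 fragments per library. Every mouse had the markers of its tissue: the summed level of 10 colonocyte markers was 4026 to 5172 FPKM in Control, 262.3 to 1934 in the IgG Ab group and 2205 to 3747 in the anti-S100a9 Ab group, and that of 6 goblet cell markers was 7054 to 9687, 987.3 to 7961 and 4635 to 6876. IgG Ab replicate 1 stood apart with the lowest sum of both. Bulk tissue RNA was sequenced, so fewer cells of a type and less RNA per cell cannot be told apart.

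The genes lie in 3 places of the mouse genome (GRCm38). Gsdma is on chromosome 11 from 98664351 to 98677708 on the + strand, in 12 exons, next to its paralogs Gsdma2 and Gsdma3. The 4 Gsdmc genes stand side by side on the - strand of chromosome 15, Gsdmc from 63775968 to 63808759, Gsdmc2 from 63824346 to 63845177, Gsdmc3 from 63857724 to 63878558 and Gsdmc4 from 63891264 to 63912297, within 136.3 kb. Gsdmd lies on the same chromosome from 75862327 to 75867408 on the + strand, in 11 exons.

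The Gsdmc copies are so alike that their levels cannot be fully separated. The starts of their coding sequences (90 bases from the ATG, GENCODE M21 transcripts, 5′ to 3′ in coding direction) are shown because short fragments from such stretches match several copies; capitals mark bases that differ from Gsdmc2.
Gsdmc2: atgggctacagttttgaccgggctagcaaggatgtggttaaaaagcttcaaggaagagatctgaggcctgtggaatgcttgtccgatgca
Gsdmc3: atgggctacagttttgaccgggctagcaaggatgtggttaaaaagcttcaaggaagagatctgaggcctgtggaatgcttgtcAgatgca
Gsdmc4: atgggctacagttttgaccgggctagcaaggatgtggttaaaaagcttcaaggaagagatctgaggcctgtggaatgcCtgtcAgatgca
Gsdmc: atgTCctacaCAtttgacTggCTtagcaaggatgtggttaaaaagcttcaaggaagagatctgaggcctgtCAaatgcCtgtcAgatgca
Over these 90 bases Gsdmc3 differed from Gsdmc2 at 1 base, Gsdmc4 at 2 and Gsdmc at 11.

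The pair most alike, Gsdmc2 and Gsdmc3, shared 97.1% of 1443 coding bases. The 90-base coding stretch with the most differences between them (coding bases 773 to 862, counted from the A of the ATG) is shown because it is where fragments tell them apart best; capitals mark its 13 differences of the 42 in the whole coding sequence.
Gsdmc2: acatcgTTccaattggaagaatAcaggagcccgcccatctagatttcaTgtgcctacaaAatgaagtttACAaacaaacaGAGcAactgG
Gsdmc3: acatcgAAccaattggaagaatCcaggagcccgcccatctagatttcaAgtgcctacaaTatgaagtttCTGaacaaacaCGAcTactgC
Gsdmc4 shared 93.7% of aligned coding bases with Gsdmc2 and 93.8% with Gsdmc3, and Gsdmc shared 86.7% to 87.5% with the other copies. Of all 100-base windows of the transcript, 28.6% in Gsdmc2, 30.5% in Gsdmc3, 20.2% in Gsdmc4 and 7.33% in Gsdmc occurred unchanged in another gene. For Gsdma the share was 1.83%, all of it in Gsdma2, and for Gsdmd it was 0%. How the study's counting split fragments that match several copies is not given in the sources used here, so the Gsdmc2, Gsdmc3 and Gsdmc4 values are uncertain as separate levels.

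By listed values Gsdmd was the most highly expressed gasdermin in every mouse, with 39.5% to 65.6% of the summed FPKM of the 6 genes. How fragments shared by Gsdmc copies were counted is not given, so this share and the order below are uncertain. In Control the order was Gsdmd, 83.4 ± 26.4 FPKM (SD, n = 3), Gsdmc2, 46.7 ± 6.75, Gsdmc3, 24.5 ± 4.35, Gsdmc4, 17.3 ± 2.12, Gsdma, 1.28 ± 0.69, and then Gsdmc, listed at 0 to 0.049. No neighbours in that order overlapped between mice. In AOM/DSS + IgG Ab, Gsdmd (68.7 to 102.9 FPKM) stayed above the rest. The ranges of Gsdmc2, Gsdmc4, Gsdma and Gsdmc3 overlapped one another across mice. Within each IgG Ab mouse, though, Gsdmc3 (1.79, 27.5 and 8.07 FPKM) was below Gsdmc2 (15.6, 49.2 and 29.2) and Gsdmc4 (7.81, 63.2 and 9.61). In AOM/DSS + anti-S100a9 Ab, Gsdmd (59.8 to 85.2 FPKM) overlapped Gsdmc4 (5.53 to 69.7) across mice, Gsdmc4 overlapped Gsdmc2 and Gsdmc3, Gsdmc2 (21.4 to 41.9) did not overlap Gsdmc3 (11 to 18.9), and Gsdma was at 1.16 FPKM or less.

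**Figure D1:**
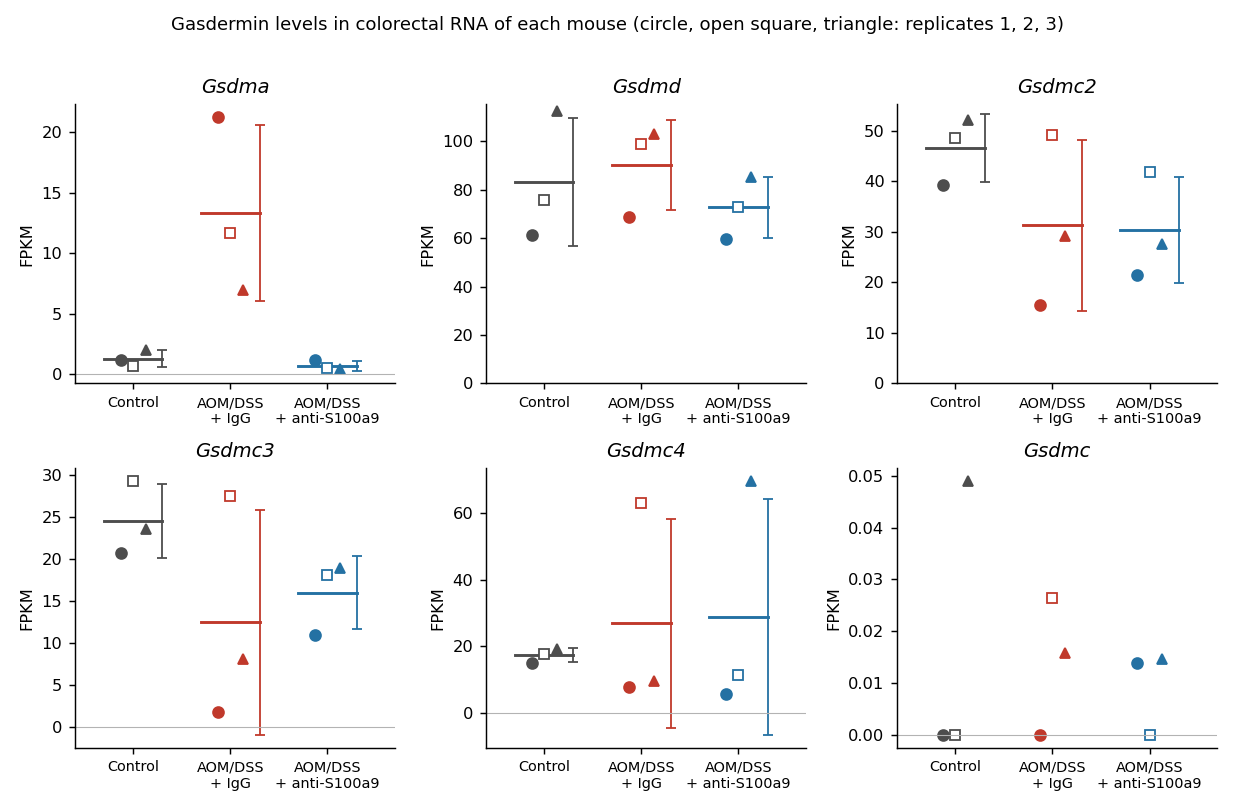
FPKM (linear axes, a different scale in each panel) of the 6 gasdermin genes in each mouse of the Control, IgG Ab and anti-S100a9 Ab groups; horizontal lines are group means and bars the SD (n = 3), left out for Gsdmc, which is listed at 0 in 4 mice. Gsdma sits between 6.96 and 21.3 FPKM in the IgG Ab mice and at 2.02 or lower in all others, while Gsdmc4 has 1 high mouse in each AOM/DSS group.

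Of the 6 genes, 5 had at least 0.1 FPKM in at least 3 mice and were tested with limma on log2(FPKM + 0.1), fitted across 15278 genes with Benjamini-Hochberg adjusted p-values; folds on this scale understate the change of low genes. The comparison of AOM/DSS + IgG Ab against Control sets tissue after carcinogen, colitis and antibody injections beside untreated mucosa. In it 1 of the 5 rose (Gsdma) and 0 fell, beside 8.18% of all tested genes that rose and 3.01% that fell. In anti-S100a9 Ab against IgG Ab, which compares the antibodies within AOM/DSS, 0 rose and 1 fell (Gsdma), beside 6.72% and 14.4%. The study reported fewer tumors with anti-S100a9 Ab, and the labels and its text differ on the tissue of that group. If the sampled tissues differ, antibody and tissue type cannot be told apart in this comparison. In anti-S100a9 Ab against Control, limma called 0 of 5 in either direction, and 0 at an unadjusted p under 0.05, beside 0.00655% of all genes in each direction. The median log2 difference of the 5 genes was -0.03, -0.04 and -0.64 in these comparisons, beside 0.09, -0.06 and 0.04 over all tested genes. The comparisons share samples, so they are not independent of one another. The shares over all genes rest on single libraries: 1710 genes were called in IgG Ab against Control, but 725 and 591 without Control replicates 1 and 2, 1104 without IgG Ab replicate 3, and 1120 and 1133 without anti-S100a9 Ab replicates 1 and 2. In anti-S100a9 Ab against IgG Ab 3219 were called, but 1576 and 1515 without IgG Ab replicates 1 and 3, and 789, 516 and 1116 without anti-S100a9 Ab replicates 1, 2 and 3.

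Gsdma was listed at 1.14, 0.663 and 2.02 FPKM in the Control mice, at 21.3, 11.7 and 6.96 in the IgG Ab mice, and at 1.16, 0.485 and 0.408 in the anti-S100a9 Ab mice. Every IgG Ab mouse was above every mouse of the other groups, and Control and anti-S100a9 Ab mice overlapped. The rise in IgG Ab over Control was 9.6-fold (log2 difference 3.26, SE 0.53, limma adjusted p = 0.0077). The level in anti-S100a9 Ab mice was 16.8-fold lower than in IgG Ab mice (log2 difference -4.07, SE 0.53, limma adjusted p = 0.0044). Between anti-S100a9 Ab and Control the log2 difference was -0.81 (95% confidence interval -2.01 to 0.40, limma adjusted p = 0.45). An estimated 31.0 to 1421 fragments stood behind the Gsdma values, from the lowest mouse to the highest.

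**Figure D2:**
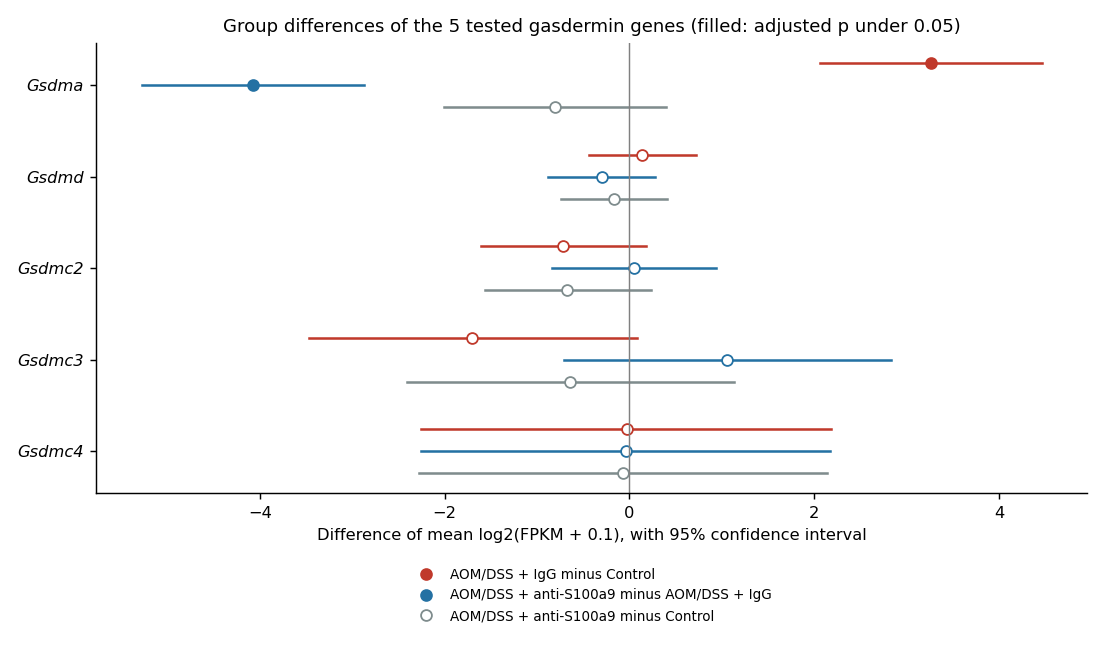
Differences of mean log2(FPKM + 0.1) for the 5 tested gasdermin genes in the 3 comparisons, with 95% confidence intervals from limma; filled points have an adjusted p under 0.05. The Gsdma intervals for IgG Ab minus Control (2.06 to 4.47) and anti-S100a9 Ab minus IgG Ab (-5.28 to -2.87) lie away from 0, and those of the other genes include 0.

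Some markers of squamous epithelium, which the anal canal and skin hold and colonic mucosa does not, differed between the groups in the same directions as Gsdma. Of 14 such markers 9 were tested. In IgG Ab against Control 6 rose and 0 fell, beside 8.18% and 3.01% of all tested genes. In anti-S100a9 Ab against IgG Ab 0 rose and 7 fell, beside 6.72% and 14.4%. In anti-S100a9 Ab against Control limma called 0 (0 at an unadjusted p under 0.05). Dsg3 and Krt6a passed the filter only through the IgG Ab mice, where they were high. Their calls in both comparisons were therefore favoured in advance. The list was chosen with earlier results of these data known, so these counts are a description. The summed level of all 14 markers was 3.77 to 4.77 FPKM in Control, 331.4 to 1645 in IgG Ab and 2.92 to 39 in anti-S100a9 Ab. Mt4, a metallothionein of stratified epithelium that belongs to the list and is singled out here after its values were seen, made up most of it, with 294.7 to 1591.5 FPKM in the IgG Ab mice. Without Mt4 the sum was 3.09 to 4.77, 11.6 to 53.6 and 2.92 to 4.87 FPKM. The order of the IgG Ab mice was that of Gsdma with Mt4 in the sum (replicate 1, then 2, then 3) and was replicate 1, then 3, then 2 without it.

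Keratin Krt14, of basal squamous cells, was 0.797 to 1.68 FPKM in Control, 4.63 to 37.1 in IgG Ab and 0.819 to 1.95 in anti-S100a9 Ab. Krt4, a keratin of moist squamous mucosa, was 0.0405 to 0.249, 1.06 to 5.22 and 0.0299 to 0.32 FPKM. Dsg3, a desmosomal cadherin, and Krt6a were listed at 0 in all Control mice and reached 1.87 and 0.776 FPKM in IgG Ab mice. The defining markers Krt5 and Trp63 peaked at 0.468 and 0.0223 FPKM over the 9 mice, and Flg was listed at 0 in all 9. Of 8 markers of hair, sebaceous gland and pigment cells, 4 were tested, and Scd3 and Krt35 rose in IgG Ab and fell with anti-S100a9 Ab. Of all tested genes, 8.18% rose and 14.4% fell in these comparisons. Both Scd3 and Krt35 passed the filter only through the IgG Ab mice, so their calls were favoured in advance. The sum of all 8 markers was 1.08 to 1.59 FPKM in Control, 4.2 to 32.8 in IgG Ab and 0.872 to 1.21 in anti-S100a9 Ab, with Krt71 listed at 0 in all mice. Of the tested squamous markers, Krt5 and Krt10 did not pass the test in any comparison. Whether squamous or skin appendage cells were present, and their part in the Gsdma result, was not tested.

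**Figure D3:**
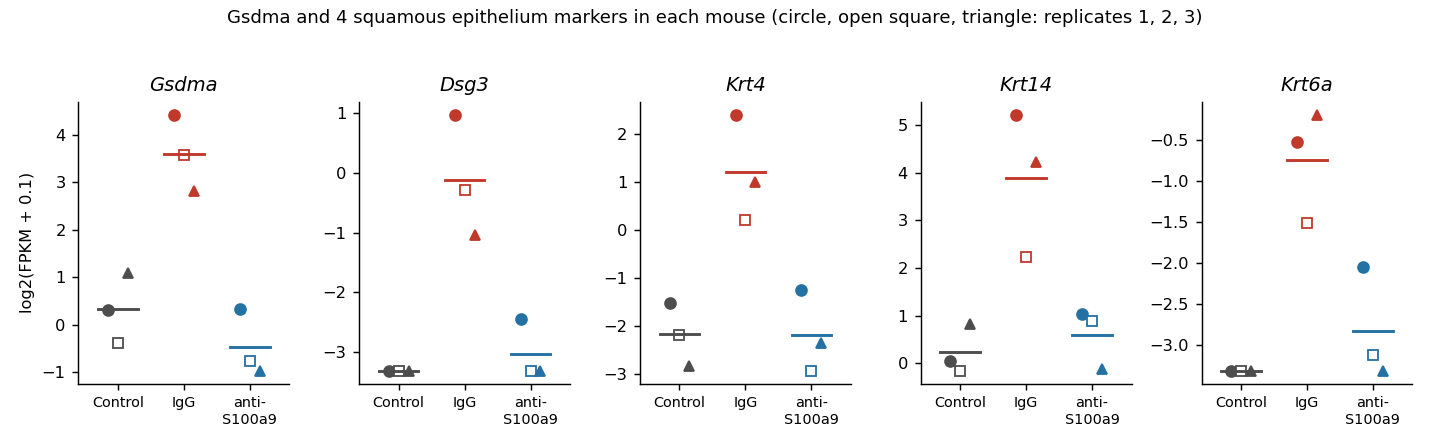
log2(FPKM + 0.1) of Gsdma and of the squamous epithelium markers Dsg3, Krt4, Krt14 and Krt6a in each mouse of the 3 groups, with a different scale in each panel; horizontal lines are group means. All 5 genes are higher in every IgG Ab mouse than in every other mouse. Dsg3 and Krt6a passed the filter only through the IgG Ab mice.

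Gsdma2 and Gsdma3, the neighbours of Gsdma with 90.4% and 90.7% of aligned coding bases in common with it, stayed near 0 and were not tested. Gsdma2 was listed at 0 in all Control mice, at 0.209, 0.0385 and 0.138 FPKM in the IgG Ab mice and at 0.0182, 0 and 0 in the anti-S100a9 Ab mice. Gsdma3 did not exceed 0.0203 FPKM in any mouse. The genes with values most like Gsdma over the 9 mice, by Pearson correlation of log2(FPKM + 0.1) among 13068 genes, were Slc18a1, a vesicular monoamine transporter (r = 0.984), Aspscr1 (r = 0.980) and Fam57a (r = 0.978). All 3 were, like Gsdma, highest in the IgG Ab mice, and with 9 points in 3 groups these likenesses follow the group difference.

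Gsdmd, which inflammatory caspases cut to start pyroptosis, did not pass the test in any comparison. It was 61.5, 75.8 and 112.7 FPKM in the Control mice, 68.7, 99.0 and 102.9 in the IgG Ab mice, and 59.8, 73.1 and 85.2 in the anti-S100a9 Ab mice. The groups overlapped in all comparisons. The log2 difference was 0.14 (95% confidence interval -0.44 to 0.72) for IgG Ab minus Control, -0.30 (-0.88 to 0.28) for anti-S100a9 Ab minus IgG Ab and -0.17 (-0.74 to 0.41) for anti-S100a9 Ab minus Control, with limma adjusted p = 0.76, 0.40 and 0.76. The intervals leave room for changes of up to 0.88 on the log2 scale. The genes most like Gsdmd over the mice were Rpl23a-ps3 (r = 0.923), Gm10076 (r = 0.922) and Tmem53 (r = 0.922), of which the first is named as a pseudogene, whose fragments may come from other copies.

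Gsdmc2 was 39.2, 48.6 and 52.2 FPKM in the Control mice, 15.6, 49.2 and 29.2 in the IgG Ab mice, and 21.4, 41.9 and 27.7 in the anti-S100a9 Ab mice. IgG Ab replicate 1 was the lowest and both AOM/DSS groups overlapped Control. The log2 difference was -0.72 (SE 0.39, limma adjusted p = 0.26) for IgG Ab minus Control, 0.05 (SE 0.39, limma adjusted p = 0.94) for anti-S100a9 Ab minus IgG Ab and -0.67 (SE 0.39, limma adjusted p = 0.41) for anti-S100a9 Ab minus Control. For IgG Ab minus Control it was -0.29 without IgG Ab replicate 1 and -1.11 without IgG Ab replicate 2, with limma adjusted p = 0.63 and 0.065. The genes most like it were Crat, carnitine acetyltransferase (r = 0.953), Cideb, a lipid droplet protein (r = 0.947), and Cant1 (r = 0.942).

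Gsdmc3 was 20.7, 29.3 and 23.6 FPKM in the Control mice, 1.79, 27.5 and 8.07 in the IgG Ab mice, and 11, 18.1 and 18.9 in the anti-S100a9 Ab mice. The IgG Ab mice ran from the lowest value of all to the Control range, and all anti-S100a9 Ab mice were below all Control mice. None of the differences passed the test: -1.70 (SE 0.78, limma adjusted p = 0.19) for IgG Ab minus Control, 1.06 (SE 0.78, limma adjusted p = 0.34) for anti-S100a9 Ab minus IgG Ab and -0.64 (SE 0.78, limma adjusted p = 0.69) for anti-S100a9 Ab minus Control, as log2 differences. Single IgG Ab libraries decided these values. Without IgG Ab replicate 2, the highest of its group, the difference was -2.63 for IgG Ab minus Control (limma adjusted p = 0.019) and 2.00 for anti-S100a9 Ab minus IgG Ab (limma adjusted p = 0.036). Without IgG Ab replicate 1, the lowest, it was -0.70 (limma adjusted p = 0.43) and 0.06 (limma adjusted p = 0.93). The genes most like Gsdmc3 were Aim1l (r = 0.973), Slc35a2, a UDP-galactose transporter (r = 0.973), and Cds1, a phospholipid synthesis enzyme (r = 0.971). Gsdmc2 and Gsdmc3, whose fragments may be shared, had r = 0.880.

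Colonocyte markers moved between the groups, whereas Gsdmc2 and Gsdmc3 passed no test in the fit of all mice. Of 10 such markers, all tested, 0 rose and 6 fell in IgG Ab against Control, beside 8.18% and 3.01% of all tested genes. In anti-S100a9 Ab against IgG Ab 4 rose and 0 fell, beside 6.72% and 14.4%. In anti-S100a9 Ab against Control limma called 0 (1 at an unadjusted p under 0.05). Their sums are given above. For IgG Ab minus Control their median log2 difference was -2.58, beside -0.72 for Gsdmc2 and -1.70 for Gsdmc3. For anti-S100a9 Ab minus IgG Ab it was 2.22, beside 0.05 for Gsdmc2 and 1.06 for Gsdmc3. Slc26a3, the chloride and bicarbonate exchanger of surface colonocytes, was 85.1 to 200.1 FPKM in Control, 2.79 to 29.9 in IgG Ab and 118.1 to 233.0 in anti-S100a9 Ab. Car4, a carbonic anhydrase, was 318.2 to 489.6, 1.37 to 55.4 and 170.4 to 330.0 FPKM. IgG Ab replicate 1, with the lowest Gsdmc2 and Gsdmc3, was the lowest mouse for both markers, and IgG Ab replicate 2, with the highest Gsdmc2 and Gsdmc3 of its group, was the highest of that group for both. The part of colonocyte content in these levels was not tested.

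Gsdmc4 was 15, 17.8 and 19.2 FPKM in the Control mice, 7.81, 63.2 and 9.61 in the IgG Ab mice, and 5.53, 11.3 and 69.7 in the anti-S100a9 Ab mice. A single mouse of each AOM/DSS group, IgG Ab replicate 2 and anti-S100a9 Ab replicate 3, stood above all Control mice, and the other 4 AOM/DSS mice were below all Control mice. The log2 difference was -0.03 for IgG Ab minus Control, -0.04 for anti-S100a9 Ab minus IgG Ab and -0.07 for anti-S100a9 Ab minus Control, each with an SE of 0.98 and a limma adjusted p of 0.98 or more. The intervals were wide, -2.25 to 2.18 for IgG Ab minus Control. The genes most like Gsdmc4 were Gna14, a G protein subunit (r = 0.915), P4ha3, a prolyl hydroxylase (r = 0.907), and Xaf1 (r = 0.889).

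The share of Gsdmc4 in the copies was also highest in these 2 mice, but IgG Ab replicates 1 and 3, whose Gsdmc4 level was below Control, had shares above the Control range. In Control mice Gsdmc4 made up 20.0%, 18.6% and 20.2% of the summed FPKM of the 4 Gsdmc genes, and its level relative to Gsdmc2 was 0.365 to 0.383. In the IgG Ab mice the share was 31.0%, 45.2% and 20.5%, and in the anti-S100a9 Ab mice 14.6%, 15.9% and 59.9%. IgG Ab replicate 3 barely passed the Control share, and its Gsdmc4 level relative to Gsdmc2, 0.329, was below the Control range. In the highest mouse Gsdmc4 was 2.51 times the level of Gsdmc2. Gsdmc3 made up 24.9% to 30.6% in Control, 7.12% to 19.7% in IgG Ab and 16.3% to 29.1% in anti-S100a9 Ab.

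**Figure D4:**
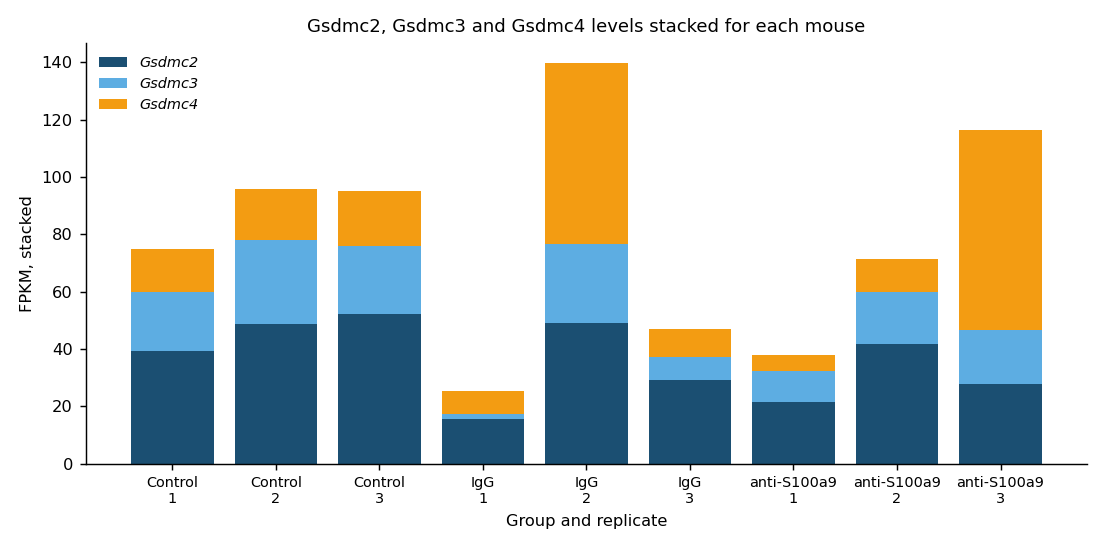
FPKM of Gsdmc2, Gsdmc3 and Gsdmc4 stacked for each of the 9 mice; Gsdmc, at 0.049 FPKM or less, is left out. The Control mice have like heights and proportions, IgG Ab replicate 2 and anti-S100a9 Ab replicate 3 are tallest through Gsdmc4, and IgG Ab replicate 1 is shortest.

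The sum over the 4 copies depends less on how fragments were split among them, but it would miss any shared fragments that were left uncounted. This sum was 74.9, 95.7 and 95.1 FPKM in the Control mice and 25.2, 139.9 and 46.9 in the IgG Ab mice. In the anti-S100a9 Ab mice it was 38.0, 71.3 and 116.3. The Control values lay within the range of the IgG Ab mice and within that of the anti-S100a9 Ab mice. As a description with no test, the differences of mean log2(FPKM + 0.1) were -0.68, 0.31 and -0.37 for IgG Ab minus Control, anti-S100a9 Ab minus IgG Ab and anti-S100a9 Ab minus Control, all within the pooled SD between mice of 0.87.

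Gsdmc itself was listed at 0, 0 and 0.049 FPKM in the Control mice, at 0, 0.0265 and 0.0159 in the IgG Ab mice, and at 0.0138, 0 and 0.0147 in the anti-S100a9 Ab mice. An estimated 2.85 fragments stood behind its highest value, so it was not tested and no difference was detectable at this depth. A listed 0 is not read as absence, because the housekeeping genes Gapdh and Ppia also had values near 0, with maxima of 0.755 and 0.974 FPKM over the 9 mice.

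Dfna5, the symbol under which the files list gasdermin E, was the other family gene with a level to test. It was 0.646, 0.707 and 0.564 FPKM in the Control mice, 0.291, 0.382 and 0.268 in the IgG Ab mice, and 0.419, 0.522 and 0.557 in the anti-S100a9 Ab mice. Every IgG Ab mouse was below every other mouse. The log2 difference was -0.84 (SE 0.24, limma adjusted p = 0.057) for IgG Ab minus Control and 0.54 (SE 0.24, limma adjusted p = 0.13) for anti-S100a9 Ab minus IgG Ab, so neither passed the test. Pejvakin, listed as Dfnb59, did not exceed 0.0534 FPKM.

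The machinery around the gasdermins was followed through 6 lists with 54 measured genes, of which 45 were tested. In IgG Ab against Control 7 rose and 2 fell, beside 8.18% and 3.01% of all tested genes, and in anti-S100a9 Ab against IgG Ab 5 rose and 4 fell, beside 6.72% and 14.4%. The counts of each list stand beside these same shares. In anti-S100a9 Ab against Control limma called 0, with 6 at an unadjusted p under 0.05. The median log2 difference of the 45 genes was -0.08, 0.28 and 0.13 in the 3 comparisons, beside 0.09, -0.06 and 0.04 over all tested genes. These counts rest on single libraries: in IgG Ab against Control 3 were called without Control replicate 1, 1 without Control replicate 2, 5 without IgG Ab replicate 1, 4 without IgG Ab replicate 3, and 5 without anti-S100a9 Ab replicate 2 or 3. In anti-S100a9 Ab against IgG Ab 5 were called without IgG Ab replicate 1, 15 without IgG Ab replicate 2, 4 without IgG Ab replicate 3, and 2, 1 and 3 without anti-S100a9 Ab replicates 1, 2 and 3.

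Of 7 tested proteases known to cut gasdermins, 1 rose and 1 fell in IgG Ab against Control, and 0 rose and 1 fell in anti-S100a9 Ab against IgG Ab. Casp1, the inflammasome caspase that cuts gasdermin D, was 66.5, 69.4 and 72.7 FPKM in Control, 25.0, 52.8 and 39.5 in IgG Ab, and 46.9, 57.1 and 58.2 in anti-S100a9 Ab. All IgG Ab mice were below all Control mice, and Casp1 fell by 0.89 on the log2 scale (SE 0.24, limma adjusted p = 0.048). Gzma, a protease of cytotoxic lymphocytes that cuts human gasdermin B, a family member mice lack, was 2.14, 1.35 and 3.68 FPKM in Control, 19.6, 7.08 and 8.08 in IgG Ab, and 1.99, 1.35 and 0.664 in anti-S100a9 Ab. It was highest in the IgG Ab mice without overlap, 4.55-fold above Control (limma adjusted p = 0.031), and 7.94-fold lower with anti-S100a9 Ab than with IgG Ab (limma adjusted p = 0.011).

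Of 13 tested inflammasome sensors and adaptors, 1 rose and 1 fell in IgG Ab against Control, and 3 rose and 0 fell in anti-S100a9 Ab against IgG Ab; 1 of 13 is near the 8.18% of all genes that rose. Nlrp6, a sensor of colon epithelium, was 31.2, 37.8 and 32.9 FPKM in Control, 2.0, 14.2 and 7.85 in IgG Ab, and 20.1, 32.5 and 28.2 in anti-S100a9 Ab. It was lowest in the IgG Ab mice without overlap, where it fell by 2.45 on the log2 scale against Control (SE 0.58, limma adjusted p = 0.030), and was 4.26-fold higher with anti-S100a9 Ab than with IgG Ab (limma adjusted p = 0.036). The colonocyte markers moved the same way (6 of 10 fell, then 4 rose), and their part in the Nlrp6 result was not tested. Nlrp3, a sensor of myeloid cells, was 0.186 to 0.34 FPKM in Control and 0.585 to 0.83 in IgG Ab, a 2.36-fold rise (limma adjusted p = 0.030), at a low level. Naip1 and Naip2, sensors of bacterial secretion systems, rose 1.86-fold and 1.74-fold with anti-S100a9 Ab against IgG Ab (limma adjusted p = 0.022 and 0.047).

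Of 6 genes of pyroptosis cargo and execution, 3 rose and 0 fell in IgG Ab against Control, and 0 rose and 2 fell in anti-S100a9 Ab against IgG Ab. Il1b, interleukin-1 beta, which leaves cells through gasdermin D pores, was 4.99, 1.9 and 3.27 FPKM in Control, 20.9, 10.4 and 12.8 in IgG Ab, and 4.13, 3.42 and 7.37 in anti-S100a9 Ab. It was highest in the IgG Ab mice without overlap, 4.37-fold above Control (limma adjusted p = 0.015) and 2.95-fold lower with anti-S100a9 Ab than with IgG Ab (limma adjusted p = 0.032). Il1a, interleukin-1 alpha, rose 7.14-fold in IgG Ab against Control (limma adjusted p = 0.014), from 0.0206 to 0.449 FPKM to 1.22 to 2.47. Il1rn, the antagonist of the interleukin-1 receptor, opposes Il1a and Il1b, and it rose 1.71-fold in IgG Ab (limma adjusted p = 0.028) and was 1.84-fold lower with anti-S100a9 Ab than with IgG Ab (limma adjusted p = 0.015). Il18, Il18bp and Ninj1 did not pass the test in any comparison.

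Some markers of neutrophils, which make Il1b, moved with this group. Of 9 tested neutrophil markers 5 rose and 0 fell in IgG Ab against Control, beside 8.18% and 3.01% of all tested genes. With anti-S100a9 Ab against IgG Ab 0 rose and 4 fell, beside 6.72% and 14.4%. In anti-S100a9 Ab against Control limma called 0, with 4 at an unadjusted p under 0.05. Those 4, S100a8, S100a9, Cxcr2 and Csf3r, were higher in every anti-S100a9 Ab mouse than in every Control mouse, S100a9 for example at 5.54 to 11.6 FPKM against 0.37 to 0.859. Ly6g and Mpo, named after their values were seen, did not pass the test in any comparison. Ly6g was 88.8 to 117.3 FPKM in Control, 26.1 to 96.0 in IgG Ab and 82.1 to 150.2 in anti-S100a9 Ab, and it made up most of the summed level in Control and anti-S100a9 Ab mice. The sum over all 10 was 90.8 to 121.2 FPKM in Control, 133.8 to 691.0 in IgG Ab and 102.0 to 181.3 in anti-S100a9 Ab. For macrophage markers limma called 0 of 7 in all comparisons (0, 1 and 1 at an unadjusted p under 0.05), and their sums overlapped between the groups. The part of neutrophil content in the interleukin-1 results was not tested.

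Of 7 tested genes tied to gasdermin D induction, limma called 0 in IgG Ab against Control (1 at an unadjusted p under 0.05) and 1 in anti-S100a9 Ab against IgG Ab. The latter was Irf2, the transcription factor that drives Gsdmd, with 28.2, 32.5 and 25.3 FPKM in Control, 18.2, 23.9 and 23.5 in IgG Ab, and 31.1, 33.9 and 28.7 in anti-S100a9 Ab. It was 1.43-fold higher with anti-S100a9 Ab than with IgG Ab (limma adjusted p = 0.044), while Gsdmd had the values given above. Of the type 2 cytokine axis, through which Gsdmc genes are induced, 11 of 16 genes were tested. In IgG Ab against Control 2 rose and 0 fell (4 at an unadjusted p under 0.05), and in anti-S100a9 Ab against IgG Ab 1 rose and 1 fell. Tslp (0.74 to 1.54 FPKM in Control, 0.335 to 0.675 in IgG Ab) and Clca1 (652.6 to 1120.3, 42.4 to 542.4) were lower in IgG Ab without overlap. Neither passed the test (limma adjusted p = 0.074 and 0.07).

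Il33, an epithelial and stromal alarmin upstream of type 2 cytokines, was 3.13, 3.65 and 2.71 FPKM in Control, 10.6, 15.8 and 5.87 in IgG Ab, and 4.96, 3.52 and 2.4 in anti-S100a9 Ab. It was highest in the IgG Ab mice without overlap, 3.1-fold above Control (limma adjusted p = 0.028) and 2.81-fold lower with anti-S100a9 Ab than with IgG Ab (limma adjusted p = 0.027). Il4ra, the receptor subunit shared by interleukins 4 and 13, was 6.02 to 11.5 FPKM in Control and 13.5 to 20.0 in IgG Ab, a 2.11-fold rise (limma adjusted p = 0.045). Jak1, a kinase of that receptor, was higher with anti-S100a9 Ab than with IgG Ab by 0.54 on the log2 scale (limma adjusted p = 0.049). The cytokines Il4 and Il13 did not exceed 0.178 and 0.147 FPKM in any mouse, and Il9 was listed at 0 in all 9.

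**Figure D5:**
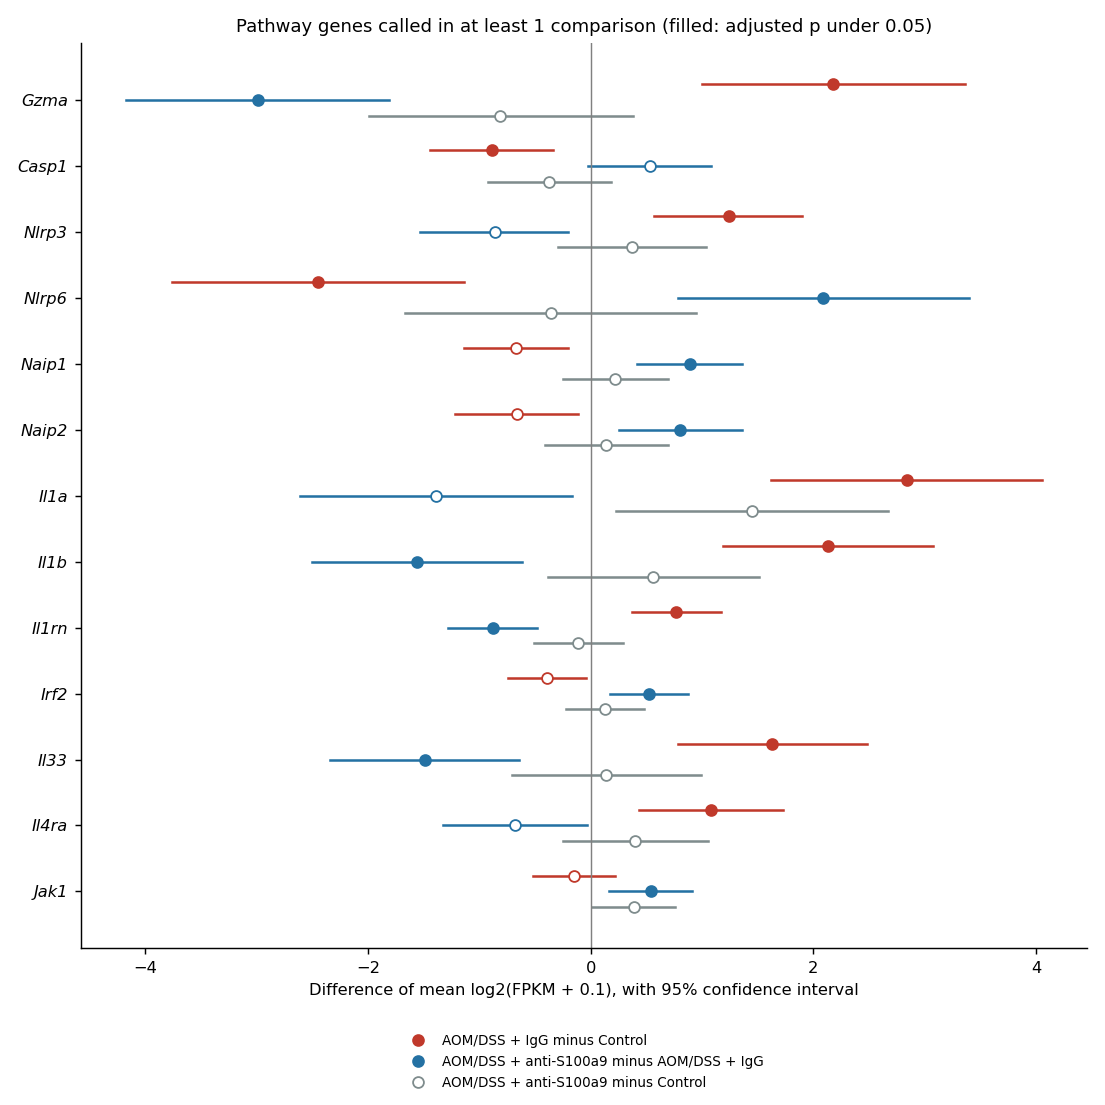
Differences of mean log2(FPKM + 0.1) with 95% confidence intervals for the 13 pathway genes that passed the test in at least 1 comparison; filled points have a limma adjusted p under 0.05. Gzma, Il1b, Il1rn and Il33 are higher in IgG Ab than Control and lower with anti-S100a9 Ab than IgG Ab, and Nlrp6 goes the other way in both.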

How the data were processed

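RNA of 9 mice (3 per group, grouped by the labels) was sequenced, 1 library per mouse. The authors deposited a table per mouse with 1 value per row named by gene symbol, which they had normalized before deposit and which is read as FPKM from its form, since neither the files nor the labels name a unit. The labels name TopHat, Cufflinks, HTSeq and DESeq, without role or version, and GRCm38; annotation and treatment of fragments matching several genes are not given in the sources used here.

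Rows repeating a symbol (46) were summed, giving 21498 symbols. Genes with at least 0.1 FPKM in 3 mice (15278) were compared as log2(FPKM + 0.1) with limma 3.58.1 in R 4.3.3 (all 9 mice, intensity trend, 8.87 degrees of freedom). DESeq needs counts and was not run. Replicates are separate mice; no pair of files was alike (at most 0.00638% identical values). In simulated data for IgG minus Control (14956 genes), 95.0% of 200 genes changed by a log2 of 3 were recovered. The changed genes were drawn only from those above a set Control level, so this share does not cover low genes or smaller changes. Library depth was estimated from the smallest value steps of 2058 single-transcript genes. Sequences and positions come from GENCODE M21 (GRCm38), with coding sequences aligned in Biopython 1.88; tables and figures used pandas 2.3.3, numpy 2.4.6 and matplotlib 3.10.9 in Python 3.11.15.

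The members and lists were chosen with earlier results of these data known. Named genes were all members, up to 4 genes per list by smallest adjusted p among those called, the gene with the highest mean in a list with none, and the 3 genes most like each tested member with a group mean of at least 1 FPKM; others are named after their values were seen. Scaling, filter, pseudocount, trend, samples in the fit, the replicate block, the study's thresholds and each mouse left out were varied.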

Additional observations from a re-analysis of the deposited data

How the results depend on the processing

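The Gsdma rise in IgG Ab and its fall with anti-S100a9 Ab passed the test under all 18 alternatives that refitted them, with limma adjusted p-values of 0.0064 to 0.032 and 0.0042 to 0.027 and log2 differences of 2.57 to 3.65 and -4.47 to -2.99. The count of gasdermins called stayed at 1, 1 and 0 in the 3 comparisons except without IgG Ab replicate 2, where Gsdmc3 made it 2 in IgG Ab minus Control and 2 in anti-S100a9 Ab minus IgG Ab; leaving out single mice gave 1 to 2, 1 to 2 and 0 to 0.

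Differences near 0 changed sign. For anti-S100a9 Ab minus IgG Ab, Gsdmc4 was 0.04 with median-of-ratios scaling and 0.09 with quantile normalization, and for anti-S100a9 Ab minus Control, Gsdmd was 0.03 with quantile normalization; the cause was not tested. Leaving out single mice moved Gsdmc4 from -0.98 to 0.52, from -1.08 to 0.91 and from -1.11 to 0.70 (IgG Ab minus Control, anti-S100a9 Ab minus IgG Ab, anti-S100a9 Ab minus Control), Gsdmd from -0.06 to 0.38 and from -0.36 to 0.07 (IgG Ab minus Control, anti-S100a9 Ab minus Control), and Gsdmc2 from -0.38 to 0.45 (anti-S100a9 Ab minus IgG Ab). Without changing sign, Gsdmc3 ran from -2.63 to -0.70 (IgG Ab minus Control) and from 0.06 to 2.00 (anti-S100a9 Ab minus IgG Ab), and Gsdmc2 from -1.11 to -0.29 (IgG Ab minus Control). The sum of the Gsdmc copies ran from -1.35 to -0.12, from -0.25 to 0.98 and from -0.76 to 0.05.

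Of the pathway genes, 1 in place of 9 was called in IgG Ab minus Control when only these groups were fitted (fewer samples), 5 in place of 9 in anti-S100a9 Ab minus IgG Ab and 1 in place of 0 in anti-S100a9 Ab minus Control with the study's thresholds (over 2-fold change at an unadjusted p under 0.05). Leaving out single mice gave 1 to 11, 1 to 15 and 0 to 0.

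With the replicate block, the counts of gasdermins called were 1, 1 and 0, and those of pathway genes 10, 9 and 0. Same-numbered mice had correlated deviations over 0.1 in 1, 2 and 2 of 3 pairs (r from -0.187 to 0.249). Not every mouse correlated best with its own number, but 3 mice per group cannot tell whether same-numbered mice shared a factor. In IgG Ab minus Control the block changed the SE of Gsdmd from 0.26 to 0.14 and that of Gsdmc2 from 0.39 to 0.24. Over all genes, 603 were called in IgG Ab minus Control when only these groups were fitted, against 1710. Scaling the samples by median of ratios moved the median of all genes from 0.09 to -0.01 in IgG Ab minus Control.

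The precision is limited by 3 mice per group, and the depth by values for Gsdmc, Gsdma2, Gsdma3 and Dfnb59 that rest on a few fragments.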

Other observations

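Of the other cell type lists, limma called 0 of 6 goblet markers (0 at an unadjusted p under 0.05) and 0 of 6 B and plasma cell markers in the 3 comparisons, the latter with 2 at an unadjusted p under 0.05 in anti-S100a9 Ab against IgG Ab. Of 7 smooth muscle markers, Myh11 rose with anti-S100a9 Ab against IgG Ab, and of 5 tested T cell markers, Cd4 rose in that comparison. Of all tested genes, 6.72% rose there. Of 5 tested adipocyte markers, 4 fell in IgG Ab against Control, beside 3.01% of all tested genes. Adipoq and Plin1, which are among those that fell, passed the filter only through the Control mice, where they were high. The sum over all 6 was 77.8 to 277.7 FPKM in Control, 9.92 to 46.3 in IgG Ab and 19.5 to 36.8 in anti-S100a9 Ab.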
